A study of Mus musculus with 7 samples.

Results

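RNA of 10 genes of the ATF4 pathway and the unfolded protein response was followed in mouse basal cell carcinoma: Atf4, Ddit3, Xbp1, Trib3, Sesn2, Ddit4, Chac1, Asns, Hspa5 and Herpud1. Every probe set that the platform annotation gives to exactly 1 of these genes was taken, which gave 22 of the 45037 probe sets on the array that are not controls, for 10 of the 18193 genes that the annotation names singly. RNA was measured on 7 single-channel Affymetrix arrays. Dissected basal cell carcinoma (tumour) had 2 arrays, normal epidermis of newborn (P0) mice had 2, and the mouse basal cell carcinoma line PDKC1 had 1 array each without cyclopamine (0 h) and after 6 and 10 h with it. Cyclopamine is a plant alkaloid that blocks Smoothened, the signal transducer of the Hedgehog pathway. Neither the genotype and age of the tumour-bearing mice nor the dose and vehicle of cyclopamine is stated in the labels. Each tissue array was made from 100 ng of RNA and each PDKC1 array from 2000 ng, so the source and the amount of RNA cannot be told apart between tissue and line. Tumour and newborn epidermis differ in age as well as in carcinoma, and these cannot be told apart either. The labels do not tie the replicate arrays to different mice, and the p-values below cover the spread of these arrays, which may be technical. The number of arrays limits the precision.

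Cells under stress phosphorylate the translation factor eIF2 alpha, which lowers protein synthesis but raises translation of ATF4, a transcription factor that then switches on genes for amino acid supply, for feedback and, under long stress, for cell death. Unfolded protein in the endoplasmic reticulum (ER) starts this route through the kinase PERK, while the sensors IRE1 and ATF6 act through XBP1 and cleaved ATF6 on genes for chaperones and for protein degradation. ATF4 is controlled mainly through translation, so its RNA does not report its protein. Secretory and barrier-forming epithelia such as epidermis use these routes as they differentiate.

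The regions upstream of 5 members are shown because they belong to the genes on which the results turn. They also differ in whether they hold exact matches to short elements through which ATF4 and the unfolded protein response act. Each is the 250 bases before the RefSeq start of the gene in GRCm38.p6, read 5′ to 3′ on the strand of the gene. They lie at chr2:119350992-119351241 (Chac1, plus strand), chr6:7693210-7693459 (Asns, minus strand), chr8:94386179-94386428 (Herpud1, plus strand), chr2:34771840-34772089 (Hspa5, plus strand) and chr2:152344061-152344310 (Trib3, minus strand). The other members lie at chr15:80255184-80257545 (Atf4), chr10:127290793-127296291 (Ddit3), chr11:5520641-5525993 (Xbp1), chr4:132492804-132510456 (Sesn2) and chr10:59949675-59951770 (Ddit4). Capitals mark matches to the core of the C/EBP-ATF response element (TGATGNAA), to the ER stress response element (CCAAT and CCACG with 9 bases of any kind between them) or to its second form (ATTGG and CCACG with 1 base of any kind between them), searched on both strands.
Chac1: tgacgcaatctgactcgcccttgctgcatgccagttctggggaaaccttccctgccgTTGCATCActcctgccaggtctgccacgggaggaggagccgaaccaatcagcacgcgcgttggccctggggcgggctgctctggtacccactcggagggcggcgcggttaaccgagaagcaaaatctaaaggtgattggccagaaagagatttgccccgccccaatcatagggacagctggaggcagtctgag
Asns: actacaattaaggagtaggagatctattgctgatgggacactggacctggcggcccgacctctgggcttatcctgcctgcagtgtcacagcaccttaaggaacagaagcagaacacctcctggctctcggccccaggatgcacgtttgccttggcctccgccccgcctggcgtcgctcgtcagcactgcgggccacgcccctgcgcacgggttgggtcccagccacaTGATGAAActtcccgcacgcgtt
Herpud1: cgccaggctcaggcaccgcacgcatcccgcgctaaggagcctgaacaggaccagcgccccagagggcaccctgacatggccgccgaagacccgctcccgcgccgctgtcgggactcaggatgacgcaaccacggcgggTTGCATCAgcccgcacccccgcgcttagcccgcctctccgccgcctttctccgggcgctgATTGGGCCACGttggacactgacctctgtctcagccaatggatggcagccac
Hspa5: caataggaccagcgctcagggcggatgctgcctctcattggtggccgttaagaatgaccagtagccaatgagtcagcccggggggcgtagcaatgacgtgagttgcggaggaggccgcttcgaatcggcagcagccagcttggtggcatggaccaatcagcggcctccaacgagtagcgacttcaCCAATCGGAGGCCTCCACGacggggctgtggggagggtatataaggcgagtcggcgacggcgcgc
Trib3: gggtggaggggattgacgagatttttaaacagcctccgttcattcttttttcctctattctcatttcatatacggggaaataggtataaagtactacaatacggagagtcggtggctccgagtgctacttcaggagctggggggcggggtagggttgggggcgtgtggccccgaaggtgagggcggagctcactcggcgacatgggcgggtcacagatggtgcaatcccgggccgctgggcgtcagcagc

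The C/EBP-ATF core was found upstream of 3 of the 10 members, Chac1, Asns and Herpud1, and in 3.45% of all 32851 upstream windows of this length. It lay 193 to 186 bases upstream of the start in Chac1, 23 to 16 in Asns and 112 to 105 in Herpud1. The ER stress response element was found in Hspa5 alone among the members (65 to 47 bases upstream) and in 0.113% of windows. Its second form was found in Herpud1 alone (52 to 42 bases upstream) and in 0.0304% of windows, so Herpud1 held an element of both kinds. The windows of Trib3, Atf4, Ddit3, Xbp1, Sesn2 and Ddit4 held none of the 3 strings of letters. A match describes letters and is no evidence of binding. Other forms of these elements, and bases outside the windows, were not searched, so a window without a match may not lack an element.

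The arrays were checked against markers before the members were compared. Markers were called higher or lower by the limma fit used for the members below, at an adjusted p under 0.05. That fit called 16.2% of all 18193 genes higher in the tumours and 12.3% lower. In a list of 5 to 7 markers, 1 call lies near these shares. All 5 markers of Hedgehog-driven tumours were higher in the tumours, and Gli1, a direct target of the pathway, was at 2192.4 and 1933.2 in tumours 1 and 2, against 190.2 and 292.9 in epidermis 1 and 2. In PDKC1 Gli1 was at 841.9, 193.2 and 189.6 at 0, 6 and 10 h. All 8 granular and cornified layer markers were lower in the tumours, with a summed intensity of 18667.5 and 8510.8 there, against 130134.3 and 120821.0 in the epidermis. Of 6 fibroblast markers 5 were higher in the tumours, with sums of 62590.6 and 72978.8 there, 14422.4 and 11704.1 in the epidermis and 484.4 to 584.1 in PDKC1. Basal keratinocyte markers summed to 103443.5 and 72772.7 in the tumours, 98804.3 and 121706.0 in the epidermis and 95235.4 to 99130.1 in PDKC1, and 1 of 7 was lower in the tumours. These sums do not stand for each marker. Krt15 was at 957.0 to 1203.4 in PDKC1, against 13433.7 to 30782.5 on the tissue arrays. Itgb4 was at 2067.4 to 2430.0 in PDKC1, against 425.8 to 1562.1 on the tissue arrays. Neutrophil markers summed to 3119.0 and 9854.2 in the tumours and to 237.6 and 271.5 in the epidermis, and skeletal muscle markers to 10531.7 and 3067.6 in the tumours and to 268.7 and 318.3 in the epidermis, so both sums also differed between the tumours. In the tumours S100a8 (2395.3 and 7955.5) and S100a9 (633.9 and 1852.2) made up most of the neutrophil sum. The neutrophil markers Mpo and Elane differed by -0.23 and -1.20 (log2, tumour minus epidermis) and were not called, so that sum does not stand for its whole list. Nor does the muscle sum: Myh1 (6768.2 and 2271.0) made up most of it in the tumours. The muscle markers Ckm (-0.21), Des (0.07) and Acta1 (2.25) were not called. Sebaceous gland markers summed to 38250.7 and 24038.6 in the tumours and to 9199.2 and 8373.8 in the epidermis, with 1 of 5 called higher. That marker was Scd1 (27894.0 and 18056.1 in the tumours), which made up most of the sebaceous sum there. Mast cell markers were higher for 4 of 5, endothelial ones for 2 of 5, adipocyte and neutrophil ones for 2 of 4 each, and muscle ones for 3 of 6. Of 5 macrophage markers 2 were higher and 1 lower, and none of 5 plasma and B cell markers was called (0 also by unadjusted limma p under 0.05). No marker of the 12 lists was under 16 on every array. The endothelial marker Pecam1 was under 16 on every tissue array (13.2 and 14.5 in the tumours, 10.8 and 8.7 in the epidermis) and over it only in PDKC1 (43.5 to 99.5). The tumour RNA also gave weaker 5′ signal: the 3′ to 5′ ratio of the Actb control was 11.3 and 93.1 in tumours 1 and 2, 3.98 and 2.84 in the epidermis, and 1.15 to 1.21 in PDKC1. The ratio of the Gapdh control was 10.6 and 15.4 in tumours 1 and 2, 5.27 and 4.52 in the epidermis, and 0.699 to 0.741 in PDKC1. The tumours thus lay closer together by Gapdh than by Actb. These values move with every difference between tumour and epidermis given below, and their part in those differences was not tested. In such bulk samples fewer cells of a type and less RNA per cell cannot be told apart.

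Tumours held less RNA of the ATF4 target genes Chac1, Trib3, Asns and Herpud1 than newborn epidermis. Not all members went this way: Sesn2, Ddit4 and the main ER chaperone Hspa5 were not called, and a probe set of Ddit3 was higher. Of the 22 probe sets 9 were lower and 1 higher in the tumours and 12 were not called (limma on log2 of intensity plus 16, adjusted p under 0.05 over all 45037 probe sets). Over all probe sets 9.17% were called lower and 18.3% higher. Taking the brightest probe set of each gene, 5 of 10 genes were lower and 0 higher (by unadjusted p under 0.05, 5 lower and 1 higher), beside 12.3% lower and 16.2% higher of 18193 genes. The median log2 difference, tumour minus epidermis, was -1.04 over these 10 genes and 0.09 over the 18193. Centring arrays on their medians lowered every tissue difference by the same amount: the median of all probe sets was -0.45 with it and 0.19 without. The intensities of the groups did not overlap for 14 probe sets with the tumours lower and for 4 with the tumours higher, and overlapped for 4. Over all probe sets 25.0% did not overlap with the tumours lower and 38.4% with the tumours higher. By gene the groups did not overlap for 6 with the tumours lower and 1 with the tumours higher, beside 29.8% and 35.8% of all genes.

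**Figure D1:**
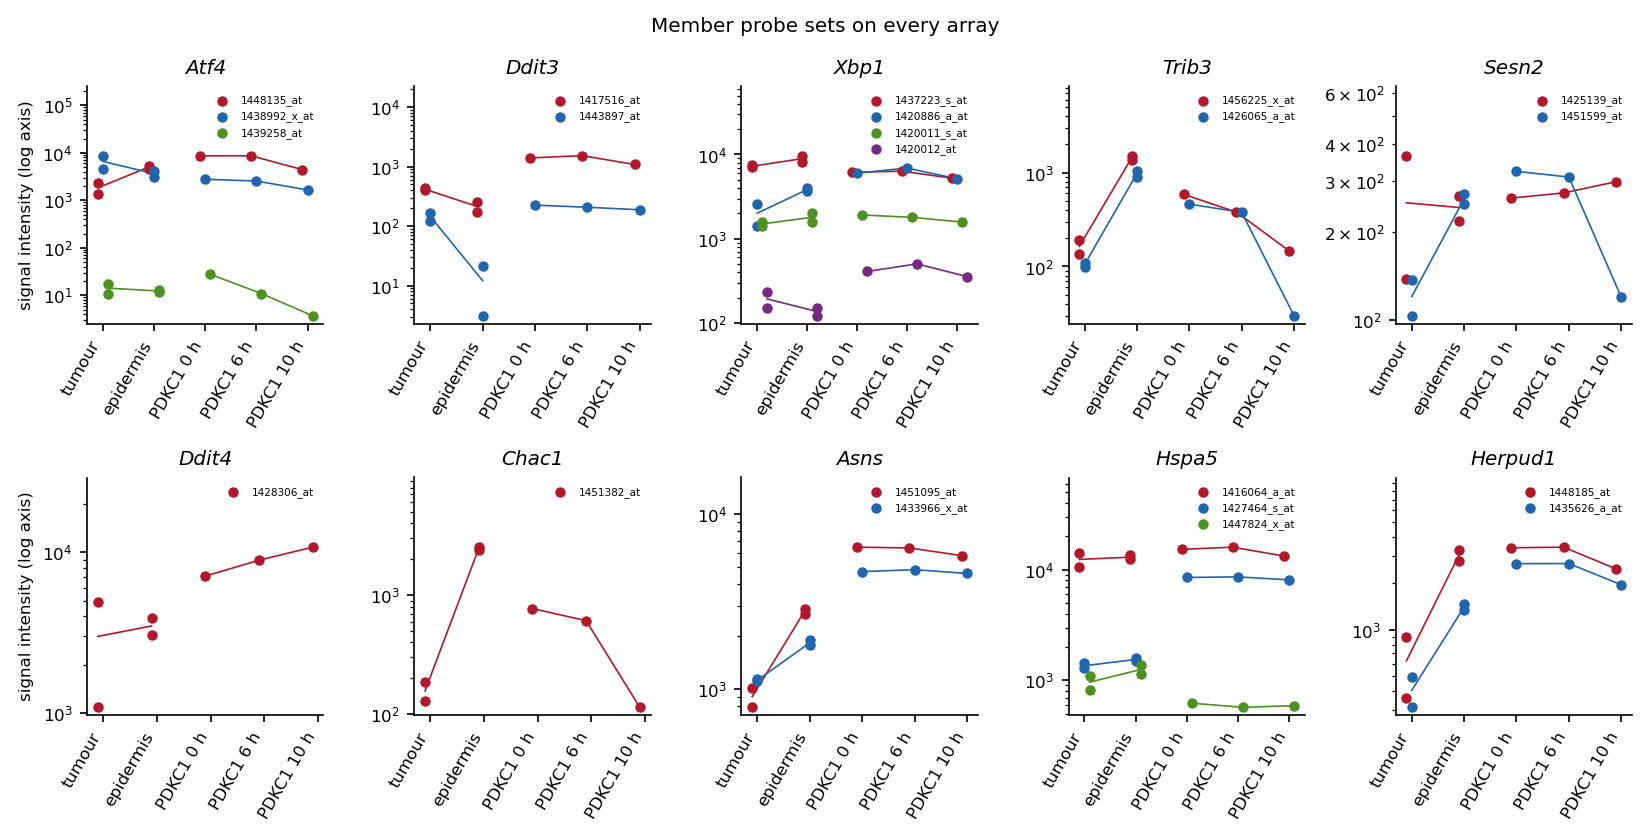
Signal intensity (log axis) of each of the 22 member probe sets on the 7 arrays, 1 panel per gene and 1 colour per probe set, with points for arrays and lines through tissue means and through the PDKC1 times. Chac1 lies at 127.8 and 185.7 in the tumours, at 2525.6 and 2401.4 in the epidermis, and at 770.5, 609.7 and 114.2 in PDKC1 at 0, 6 and 10 h, while the probe sets of Atf4 cross between the tissues.

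Transcription factors are encoded by 3 members: Atf4 itself, Ddit3, which encodes the factor CHOP that promotes cell death under ER stress, and Xbp1, whose RNA is spliced by IRE1 to give an active factor. The Atf4 probe set 1448135_at was at 2329.0 and 1333.8 in the tumours, against 4667.7 and 5390.2 in the epidermis. Every tumour lay under every epidermis array, with a log2 difference of -1.50 ± 0.30 (SE, 2 arrays per tissue; limma adjusted p = 0.00939). The call was lost without epidermis 1 (adjusted p = 0.0817), without epidermis 2 (0.110) and without a variance trend (0.0505). Another Atf4 probe set, 1438992_x_at, went the other way, at 4488.3 and 8710.1 in the tumours, against 4122.7 and 3142.1 in the epidermis (0.79 ± 0.34, limma adjusted p = 0.132). It was called higher only without tumour 1 (1.27, adjusted p = 0.00280). The suffix _x_at marks probe sets in which some probes may also match other transcripts. The third, 1439258_at, was at 17.5 and 10.8 in the tumours, against 12.7 and 11.9 in the epidermis, under the 20th percentile of each of these arrays (16.2 to 27.9), and differed by 0.08 ± 0.40. The sign of the Atf4 difference between the tissues thus turned with the probe set.

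Of the Ddit3 probe sets the dimmer was called higher in the tumours and the brighter was not called. Probe set 1443897_at was at 166.9 and 123.6 in the tumours, against 21.1 and 3.1 in the epidermis. The groups lay far apart (2.59 ± 0.56, limma adjusted p = 0.0130), but the epidermis lay near the pseudocount of 16, and the difference was 3.47 with a pseudocount of 4 and 1.46 with 64. It was not called without epidermis 2 (2.11, adjusted p = 0.0979). The brighter probe set 1417516_at was at 399.3 and 432.1 in the tumours, against 175.5 and 250.9 in the epidermis. It too was higher on both tumour arrays but was not called (0.93 ± 0.32, limma adjusted p = 0.0728), except with dim probe sets left out (0.0478). With quantile normalization the difference of the brighter probe set was 0.34 (adjusted p = 0.493), and with centred arrays 0.29 (0.520).

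Xbp1 had 4 probe sets, of which 1 was called. Probe set 1420886_a_at was at 2593.9 and 1426.7 in the tumours, against 3973.4 and 3688.6 in the epidermis (-0.99 ± 0.31, limma adjusted p = 0.0496). The call sat at the threshold: it was lost with quantile normalization (adjusted p = 0.115), with a pseudocount of 64 (0.0551), without a variance trend (0.147), and without epidermis 1 (0.277) or epidermis 2 (0.223). The brightest probe set, 1437223_s_at, was at 7449.6 and 7057.7 in the tumours, against 9682.4 and 8152.8 in the epidermis, a difference of -0.29 ± 0.22 that was not called (limma adjusted p = 0.399). The other two differed by -0.25 and 0.43 and were not called. The annotation used here does not say whether any of these probe sets separates spliced from unspliced Xbp1 RNA.

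Trib3, Sesn2 and Ddit4 encode inhibitors of growth signalling: TRIB3 is a pseudokinase that ATF4 and CHOP induce and that feeds back on them, and SESN2 and DDIT4 (REDD1) restrain the kinase complex mTORC1. Trib3 probe set 1456225_x_at was at 191.7 and 135.6 in the tumours, against 1361.1 and 1514.7 in the epidermis. Probe set 1426065_a_at was at 109.9 and 99.4 in the tumours, against 907.9 and 1049.4 in the epidermis. Both probe sets gave the same separation, 8.18-fold and 8.23-fold lower in the tumours (-3.03 ± 0.29, limma adjusted p = 0.000688, and -3.04 ± 0.30, limma adjusted p = 0.000713). Trib3 stayed called in all 12 and 11 alternatives that could test these probe sets.

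Sesn2 and Ddit4 were not called. Sesn2 probe set 1451599_at was at 136.9 and 103.1 in the tumours, against 248.7 and 270.7 in the epidermis (-1.03 ± 0.37, limma adjusted p = 0.0828). Its other probe set, 1425139_at, was at 138.1 and 365.7 in the tumours, against 218.9 and 266.6 in the epidermis (-0.09 ± 0.48, limma adjusted p = 0.920). The tumours lay on either side of the epidermis for 1425139_at and below it for 1451599_at, although the annotation gives both the same transcript accession. Ddit4, with 1 probe set, was at 1089.8 in tumour 1 and 4917.1 in tumour 2, and at 3057.2 and 3917.2 in the epidermis (-0.57 ± 0.61, limma adjusted p = 0.552). Tumour 2 was 4.51 times tumour 1, and the sign of the difference turned with the tumour left out: it was 0.50 without tumour 1 and -1.65 without tumour 2, where it was called (adjusted p = 0.00133).

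Chac1 and Asns encode enzymes: CHAC1 breaks down glutathione and is a late product of the ATF4 and CHOP route, and asparagine synthetase makes asparagine and is a standard readout of ATF4 in amino acid shortage. Chac1 (1451382_at) was at 127.8 and 185.7 in the tumours, against 2525.6 and 2401.4 in the epidermis. It had the largest difference of the members, 14.6-fold lower in the tumours (-3.86 ± 0.27, limma adjusted p = 0.000414), and stayed called in all 12 alternatives. Asns probe set 1451095_at was at 1020.6 and 787.0 in the tumours, against 2697.6 and 2868.0 in the epidermis (-1.62 ± 0.23, limma adjusted p = 0.00267). Its probe set 1433966_x_at was at 1111.5 and 1137.4 in the tumours, against 1898.8 and 1778.7 in the epidermis (-0.70 ± 0.22, limma adjusted p = 0.0482). Both probe sets placed every tumour under every epidermis array. The first lost its call without epidermis 1 (adjusted p = 0.0541) or 2 (0.0583), and the second also with quantile normalization (0.0591), without a variance trend (0.170) and with the replicate number as a block (0.0833), at 0.360 and 0.290 without epidermis 1 and 2.

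Hspa5 encodes BiP, the main chaperone of the ER lumen, and Herpud1 a membrane protein of ER-associated degradation. The brightest Hspa5 probe set, 1416064_a_at, was at 10635.2 and 14178.2 in the tumours, against 13609.3 and 12409.4 in the epidermis, with overlapping groups (-0.08 ± 0.25, limma adjusted p = 0.854). The other two Hspa5 probe sets differed by -0.19 ± 0.22 and -0.39 ± 0.25 and were not called, except where arrays were centred on their medians (-0.83, adjusted p = 0.0371, and -1.03, 0.0229). Herpud1 probe set 1448185_at was at 893.0 and 360.6 in the tumours, against 2809.1 and 3310.2 in the epidermis. Its probe set 1435626_a_at was at 492.6 and 311.8 in the tumours, against 1340.0 and 1466.1 in the epidermis. On both, the tumours lay under the epidermis, 5.24-fold lower (-2.39 ± 0.40, limma adjusted p = 0.00479) and 3.47-fold lower (-1.80 ± 0.29, limma adjusted p = 0.00408). The first differed by -3.0 without tumour 1 and by -1.75 without tumour 2. The first was not called without epidermis 2 (adjusted p = 0.0531), and the second without epidermis 1 (0.0581) or 2 (0.0669).

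**Figure D2:**
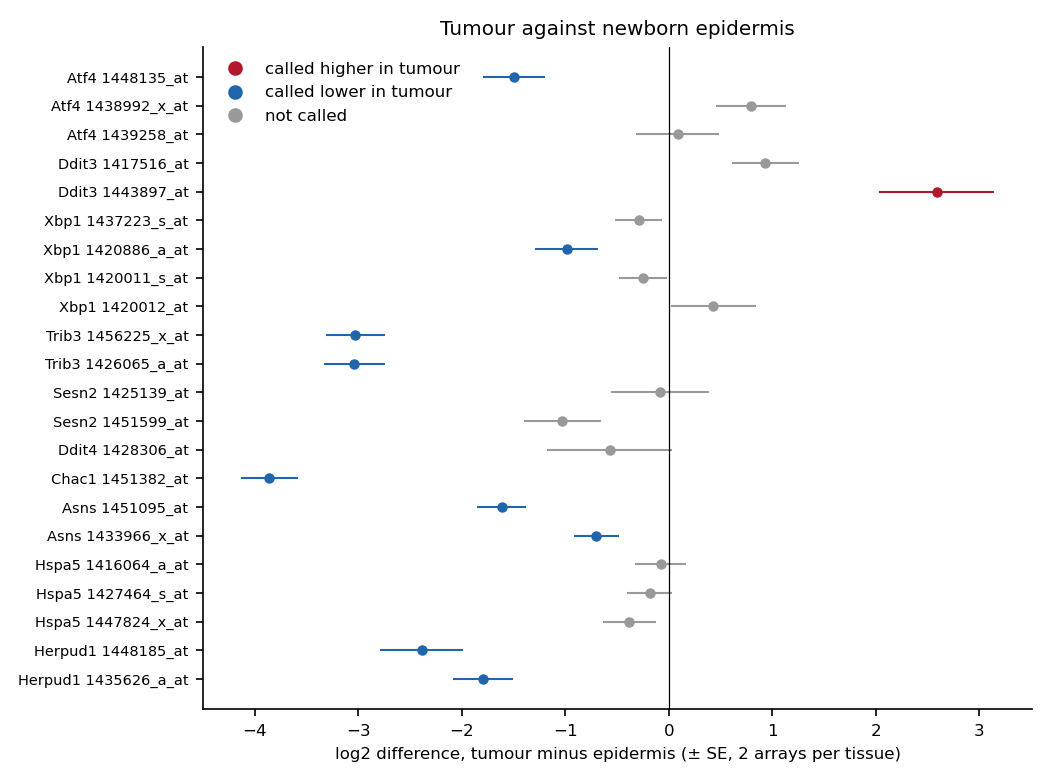
Log2 difference (tumour minus epidermis) of each member probe set, with its SE from limma over 2 arrays per tissue, in red where called higher, blue where called lower and grey where not called. Chac1 (-3.86) and both Trib3 probe sets (-3.03 and -3.04) lie farthest to the left, and the called Ddit3 probe set (2.59) farthest to the right.

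In PDKC1 the question was how the members stood after 6 and 10 h with cyclopamine. The series holds no array without cyclopamine at 6 or 10 h, so the drug and the time in culture cannot be told apart. With 1 array per time there is no replicate check and no test, and a difference of at least 2-fold was counted among probe sets whose brightest PDKC1 array was over the median probe set of that array. Of the 22 member probe sets 21 passed this filter on level. At 6 h 0 of the 21 were at least 2-fold lower and 0 at least 2-fold higher than at 0 h, against 3.27% and 2.29% of 25111 probe sets. At 10 h 4 of 21 were at least 2-fold lower than at 0 h and 0 at least 2-fold higher, against 3.02% and 2.84% of all. The same number, 4 of 21, were at least 2-fold lower at 10 h than at 6 h, against 2.2% lower and 2.64% higher of all, and 18 of 21 were below their 6 h value (47.0% of all). The 10 h values share the 0 h array with the 6 h values. Below 0 h without regard to size were 9 of 21 at 6 h (51.3% of all probe sets) and 19 of 21 at 10 h (48.8% of all). Probe sets of a gene are not independent.

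The lower probe sets at 10 h belonged to Trib3, Chac1 and Sesn2. Trib3 (1426065_a_at) was at 461.5, 377.2 and 29.8 at 0, 6 and 10 h, a log2 difference from 0 h of -0.28 at 6 h and -3.38 at 10 h. At 10 h it had the lowest difference of all 25111 probe sets. Its other probe set, 1456225_x_at, was at 584.6, 379.3 and 147.3, which gave -0.60 at 6 h and -1.88 at 10 h. The probe sets of Trib3 were thus lower together but by unlike amounts, 10.4-fold and 3.68-fold at 10 h, and with a pseudocount of 64 by more similar ones (-2.49 and -1.62).

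Chac1 was at 770.5, 609.7 and 114.2 at 0, 6 and 10 h. It was 6.04-fold lower at 10 h than at 0 h (-2.59) and ranked 12 from the lowest of 25111. Sesn2 probe set 1451599_at was at 323.0, 308.9 and 119.5 (-1.32 at 10 h). Sesn2 probe set 1425139_at did not follow, at 261.4, 272.4 and 297.6 (0.18 at 10 h). As in the tissues, the Sesn2 probe sets disagreed.

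Atf4 itself was lower at 10 h on both bright probe sets. Probe set 1448135_at was at 8651.6, 8655.7 and 4426.5 at 0, 6 and 10 h, and 1438992_x_at at 2774.9, 2547.4 and 1653.6. The differences at 10 h were -0.96 and -0.74, just short of 2-fold, and the first passed 2-fold against 6 h with each array centred on its median (-1.02, against -0.96 otherwise). In the line these Atf4 probe sets had the same sign at 10 h, and in the tissues they had opposite signs.

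The other members were closer to their 0 h values. Asns was at 6469.4, 6403.8 and 5790.4 on 1451095_at (-0.16 at 10 h). Herpud1 was at 3419.4, 3450.0 and 2492.1 on 1448185_at, with -0.45 at 10 h on both of its probe sets. Both were thus much closer to their 0 h level at 10 h than Trib3 and Chac1 were. Ddit3 (1417516_at) was at 1395.0, 1524.2 and 1084.2 (-0.36 at 10 h), and Xbp1 (1437223_s_at) at 6146.0, 6340.7 and 5229.4 (-0.23). Hspa5 (1416064_a_at) was at 15292.6, 16009.8 and 13306.1 (-0.20). Ddit4 was higher at each later time, at 7116.5, 8930.1 and 10761.4, or 0.33 over 0 h at 6 h and 0.60 at 10 h, short of 2-fold.

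**Figure D3:**
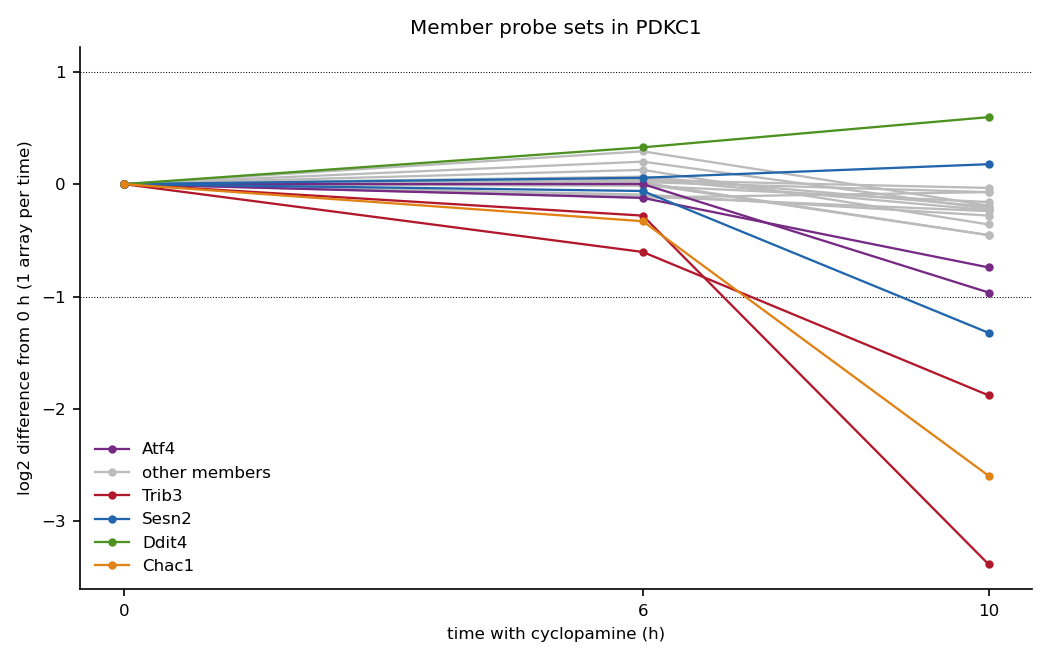
Log2 difference from 0 h of the 21 member probe sets that passed the filter on level, against hours with cyclopamine, 1 array per time, with dotted lines at a 2-fold difference. Trib3 (-1.88 and -3.38) and Chac1 (-2.59) are lowest at 10 h, Ddit4 is at 0.60 there, and the Sesn2 probe sets differ (-1.32 and 0.18).

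Across the 5 conditions the members fell into different orders of level. Chac1 and both Trib3 probe sets were highest in epidermis, then in PDKC1 at 0 h and 6 h, then in tumour, and lowest in PDKC1 at 10 h. For Chac1 the 10 h value of 114.2 lay close to the tumour values of 127.8 and 185.7, and these neighbours cannot be told apart with 1 array. For Trib3 the 10 h value of 147.3 on 1456225_x_at lay between the tumour values of 135.6 and 191.7, while 29.8 on 1426065_a_at lay under both tumours. Asns and Herpud1 were higher in untreated PDKC1 than in either tissue: on 1451095_at Asns at 0 h was 7.16 times the tumour mean and 2.32 times the epidermis mean. On 1448185_at Herpud1 at 0 h was 5.46 times the tumour mean but 1.12 times the epidermis mean, and its 3419.4 lay just over the higher epidermis array at 3310.2. On 1435626_a_at Herpud1 at 0 h was 1.92 times the epidermis mean. Ddit3 at 0 h was 3.36 times the tumour mean and 6.54 times the epidermis mean on 1417516_at, and 1.55 and 18.6 times on 1443897_at. For Hspa5, Atf4 and Xbp1 the order turned with the probe set. For Hspa5 0 h was 6.28 times the tumour mean on 1427464_s_at and 0.646 times on 1447824_x_at. For Atf4 it was 4.72 times on 1448135_at and 0.42 times on 1438992_x_at. For Xbp1 it was 0.847 times on 1437223_s_at and 2.99 times on 1420886_a_at.

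The genes with a pattern most like Atf4 and Ddit3 were found among 9096 genes over the median level, by the root mean square difference of log2 profiles over the 5 conditions, each centred on its own mean. For Atf4 (1448135_at) they were Kif17 (0.18), Amotl2 (0.18) and Ifi202b (0.19). Amotl2, for example, was at 324.2 and 266.1 in the tumours, 926.5 and 816.9 in the epidermis and 1332.2, 1293.8 and 947.8 in PDKC1 at 0, 6 and 10 h. For Ddit3 (1417516_at) they were Tpbg (0.11), Ubxn2b (0.12) and Arhgap6 (0.13). None was a member.

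Other genes of these routes were described by 7 lists of 94 genes, of which 90 were measured. Over all lists 11 genes were higher and 23 lower in the tumours and 56 were not called, beside the 16.2% higher and 12.3% lower of all genes. The called genes of amino acid synthesis and of tRNA charging were mostly lower, also with centred or quantile normalized arrays. Those of amino acid transport and of the stress sensors were higher, but this turned with the scaling. Transport had 2 higher and 1 lower with quantile normalization and 1 higher and 2 lower with centred arrays, and the sensors had 1 higher and 2 lower, and 1 higher and 4 lower, under the same settings.

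Of 11 measured genes of amino acid and one-carbon synthesis 7 were lower and 1 higher in the tumours, with a median log2 difference of -0.98. Cth, which makes cysteine from cystathionine, was at 289.3 and 241.8 in the tumours, against 1830.6 and 1628.0 in the epidermis (-2.63 ± 0.25, limma adjusted p = 0.000694). Psat1, an aminotransferase of serine synthesis, was at 1991.6 and 1795.4 in the tumours, against 11466.1 and 10517.0 in the epidermis (-2.53 ± 0.21, limma adjusted p = 0.000523). The higher gene was Aldh18a1, which acts in proline synthesis, at 2466.7 and 2632.1 in the tumours, against 685.5 and 695.3 in the epidermis (1.86 ± 0.22). Of 13 genes for cytosolic tRNA synthetases and the tRNA export receptor Xpot 4 were lower and 0 higher (8 and 0 by unadjusted limma p under 0.05), with a median of -0.75. The synthetase genes Cars (-2.28 ± 0.29), Sars (-2.27 ± 0.28) and Gars (-2.11 ± 0.22), for cysteine, serine and glycine, had the largest differences. Cth, Psat1, Aldh18a1, Cars, Sars and Gars were called under all 12 alternatives.

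Of 10 amino acid transporter genes 3 were higher and 0 lower (4 and 0 by unadjusted limma p under 0.05), with a median of 0.28 that was -0.36 with centred arrays. Slc7a6 was at 2001.6 and 2262.6 in the tumours, against 285.9 and 284.7 in the epidermis (2.83 ± 0.24, limma adjusted p = 0.000523). Slc1a5 (1.34 ± 0.39), a glutamine carrier, and Slc38a2 (0.82 ± 0.23) were the others, and neither was called without epidermis 1 (adjusted p = 0.242 and 0.268), without epidermis 2 (0.154 and 0.30) or with centred arrays, where they differed by 0.70 and 0.17 (0.224 and 0.609). Slc1a5 also differed by 0.66 with quantile normalization (adjusted p = 0.306) and was not called without tumour 1 (0.126), and Slc38a2 was not called with the replicate number as a block (0.0636). Neither was called without a variance trend (0.0588 and 0.126). Of 9 stress sensors and eIF2 alpha kinases 2 were higher and 0 lower (2 and 2 by unadjusted limma p under 0.05), with a median of 0.32 that was -0.32 with centred and -0.06 with quantile normalized arrays. They were Eif2ak4 (1.84 ± 0.38), which encodes the amino acid sensor GCN2, and Ern1 (1.28 ± 0.26), which encodes IRE1. Without epidermis 1 their adjusted p was 0.0663 and 0.0756, and without epidermis 2 it was 0.101 and 0.150. Ern1 was not called with centred arrays (0.64, adjusted p = 0.112) or without a variance trend (0.0535), and with quantile normalization Eif2ak4 was not (1.39, 0.0601).

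In the list of 17 ATF4 partners, feedback genes and stress effectors 6 were lower and 3 higher (median -0.46). Without epidermis 1 there were 0 lower and 1 higher, without epidermis 2 there were 1 lower and 1 higher, and with centred arrays 8 lower and 1 higher (median -1.10). Ppp1r15a (-1.89 ± 0.36), whose product GADD34 reverses eIF2 alpha phosphorylation, and the transcription factor gene Atf3 (-1.66 ± 0.30) were lower. Ppp1r15a was at 400.4 and 192.7 in the tumours, against 1083.0 and 1063.6 in the epidermis. Without epidermis 1 and 2 the adjusted p was 0.0869 and 0.0798 for Ppp1r15a, and 0.0861 and 0.110 for Atf3. Atf3 differed by -2.29 with quantile normalization. Trib2, a relative of Trib3, went the other way from it: it was at 2012.4 and 2567.7 in the tumours, against 260.7 and 279.9 in the epidermis (3.0 ± 0.25, limma adjusted p = 0.000522).

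Of 17 ER chaperones and foldases 5 were lower and 1 higher (median -0.47), and of 13 genes of ER-associated degradation 1 was lower and 1 higher (median 0.21, and -0.43 with centred arrays). The chaperone counts were 4 lower and 3 higher with quantile normalization, 10 lower and 0 higher with centred arrays (median -1.11), and 1 lower and 0 higher without a variance trend, and no chaperone was called without epidermis 1 or 2. The disulfide isomerase genes Pdia3 (-1.62 ± 0.31) and P4hb (-1.27 ± 0.28) and the lectin chaperone gene Canx (-1.29 ± 0.29) were lower. P4hb was at 10990.0 and 7158.2 in the tumours, against 21383.3 and 21494.5 in the epidermis. The higher chaperone gene was Hyou1 (1.01 ± 0.23), named after its values were seen, and it was thus not called with centred arrays, without a variance trend or without either epidermis array. In ER-associated degradation H13, which encodes signal peptide peptidase, differed by -1.40 ± 0.38 and the ubiquitin-conjugating enzyme gene Ube2j1 by 0.84 ± 0.24. No gene named here from these lists by its size stayed called without an epidermis array: without epidermis 1 and 2 the adjusted p was 0.0570 and 0.117 for Pdia3, 0.143 and 0.138 for P4hb, 0.145 and 0.127 for Canx, 0.141 and 0.217 for H13, and 0.241 and 0.288 for Ube2j1. Ube2j1 differed by 0.20 with centred arrays (adjusted p = 0.585) and by 0.61 with quantile normalization (0.128), and was not called with the replicate number as a block (0.0538) or without a variance trend (0.120). P4hb and Canx were not called with quantile normalization (-0.72, adjusted p = 0.107, and -0.93, 0.0755), nor, with H13, without a variance trend (0.0601, 0.0693 and 0.0899).

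In PDKC1 few list genes were 2-fold from 0 h, but the tRNA synthetase genes were lower together at 10 h. All 13 of that list were below 0 h at 10 h (49.2% of 11581 genes), with a range from -0.82 to -0.04 and a median of -0.36, while 5 of 13 were below 0 h at 6 h (51.4% of genes). Cars was at 3063.4, 2774.8 and 1727.9 at 0, 6 and 10 h. Among the chaperones 5 of 17 were below 0 h at 10 h, with a median of 0.15. Among list genes that passed the filter on level, the one at least 2-fold lower at both times was Fgf21, a secreted ATF4 target, at 80.8, 8.2 and 18.1, levels near the dim end of the arrays. It passed the filter only through its 0 h value, just over the median of 78.1 on that array. Its lower later values thus follow in part from how it was chosen. Adm2, which did not pass, was at 44.8, 10.6 and 4.8. Mthfd2, a mitochondrial enzyme of one-carbon metabolism, was at 1568.8, 1525.2 and 351.8 (-2.11 at 10 h), and Sesn1 at 1849.5, 2864.2 and 3884.4 (1.06 at 10 h). Derl3 of ER-associated degradation was at 160.1, 53.7 and 101.8 (-1.34 at 6 h). Adm2, Mthfd2, Sesn1 and Derl3 were named after their values were seen. At 6 h 1 of 16 ATF4 partners, feedback genes and stress effectors and 1 of 13 degradation genes were at least 2-fold lower. At 10 h 1 of the same 16 was lower and 1 higher, and 1 of 11 amino acid synthesis genes was lower. The lists held no other difference of this size from 0 h among genes that passed the filter. Of all genes, 2.76% at 6 h and 2.71% at 10 h were at least 2-fold lower, and 1.78% and 2.11% at least 2-fold higher.

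**Figure D4:**
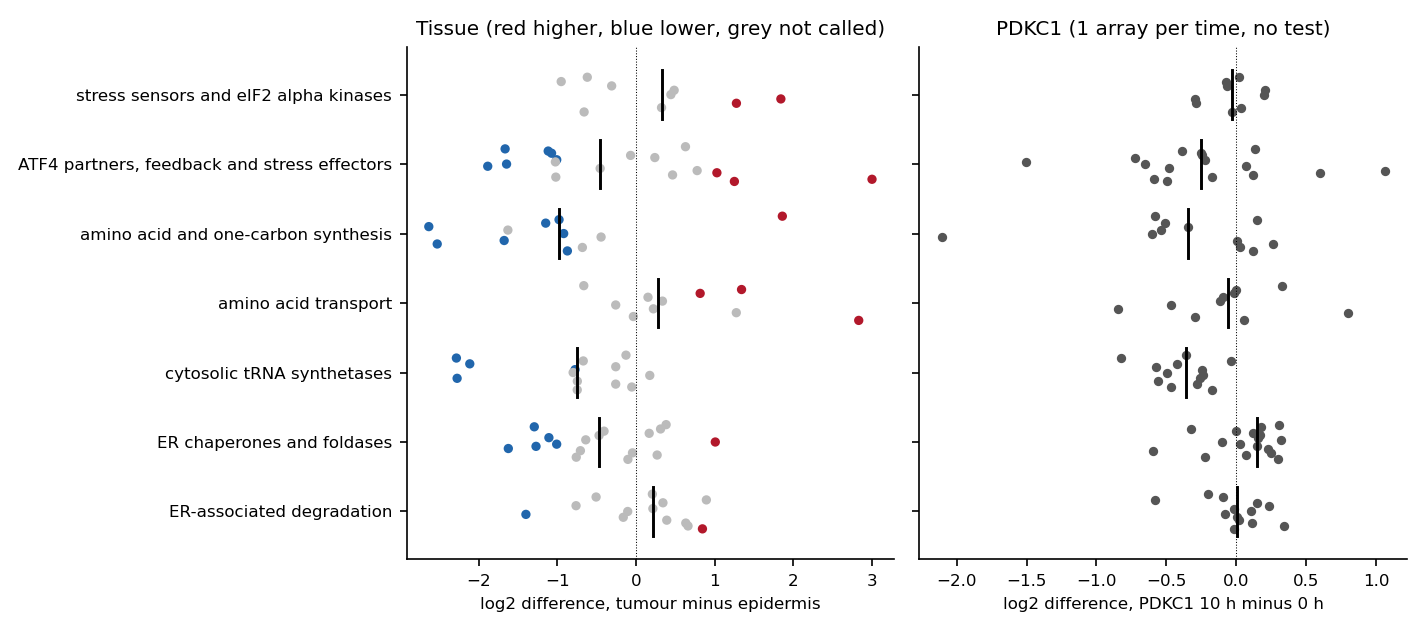
Log2 differences of the measured genes of 7 pathway lists, tumour minus epidermis on the left (red called higher, blue called lower, grey not called) and PDKC1 10 h minus 0 h on the right, with a black bar at each list's median. All 13 genes of the tRNA synthetase list lie under 0 at 10 h, and amino acid synthesis has the lowest median between the tissues (-0.98).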

How the data were processed

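The authors deposited a table of linear signal intensity per probe set, 1 column per array. Trimmed by 2 percent at either end, the mean intensity was 500.0 on every array, as scaling of whole arrays would give; the deposited files name no procedure, and the summarising software is not given in the sources used here. Per the labels' protocols, RNA was column-purified and labelled by the standard Affymetrix method. The 64 control probe sets were left out. GEO's platform annotation gave 1 gene to 34945 probe sets, several to 932 and none to 9160; symbols were updated through Entrez identifiers with RefSeq GRCm38.p6, which also gave the upstream sequences.

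Intensities were taken as log2(intensity + 16), so fold changes understate low genes. The tissues were tested against each other in limma (3.58.1, under R 4.3.3) by lmFit and a two-sided eBayes with a variance trend, with Benjamini-Hochberg adjustment over 45037 probe sets. For genes outside the 10 members the probe set with the highest mean stood for its gene. PDKC1 was described by differences without a test. The fit was tested on simulated data.

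All 22 probe sets of the members are given. From each list up to 3 called genes by size were named, and for PDKC1 up to 2 genes at least 2-fold from 0 h at both times. The members and lists were chosen with earlier results of these data known, and the comparison of 10 h with 6 h was added after the values were seen. No cell of the table was missing and no 2 arrays were identical.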

Additional observations from a re-analysis of the deposited data

How the results depend on the processing

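Alternatives were centring of arrays on their medians, quantile normalization, pseudocounts of 4 and 64, leaving out probe sets under the 40th percentile, no variance trend, a replicate block, a fit at gene level, and leaving out each tissue array. The 10 called member probe sets kept their direction in all alternatives that tested them, and 3 (Chac1 and both of Trib3) were called in each. Member probe sets called numbered 10, 5 genes at gene level, and 3 to 12 with an array left out. All probe sets called numbered 12387, 5282 genes at gene level and 4559 to 14924 with an array left out. List genes called numbered 34, against 15 without a variance trend and 9 to 50 with an array left out. Losing an epidermis array leaves 3 arrays, and the lone epidermis array is then assumed to vary like the tumours.

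Scaling moved the split of calls. The median probe set differed by 0.19 (tumour minus epidermis), by -0.11 with quantile normalization and by -0.45 with centring. All calls were 8255 higher and 4132 lower, 5671 and 5092 with quantile normalization, and 4843 and 8722 with centring. Calls among member probe sets were 1 higher and 9 lower, 1 and 8 with quantile normalization, and 1 and 14 with centring, where 15 were called. List calls were 11 higher and 23 lower, and with centring 52 genes were called, 4 higher and 48 lower. Uncalled differences changed sign: with quantile normalization Atf4 1439258_at (-0.13), Xbp1 1437223_s_at (0.13) and 1420012_at (-0.35) and Hspa5 1416064_a_at (0.44); with centring Atf4 1439258_at (-0.56) and Xbp1 1420012_at (-0.21). With an array left out, differences ranged from -0.078 to 0.24 for Atf4 1439258_at, -0.74 to 0.57 for Sesn2 1425139_at, -1.65 to 0.50 for Ddit4 1428306_at and -0.29 to 0.13 for Hspa5 1416064_a_at, with the sign turned without tumour 1 in each, and Sesn2 1425139_at was at 0.05 without epidermis 2. Sesn2 1451599_at was called with quantile normalization, centring and dim probe sets left out (adjusted p = 0.0212, 0.0155 and 0.0429) and without tumour 1 (0.0456). The cause of these changes was not tested.

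The labels number tumour and epidermis arrays alike, but same-numbered arrays did not deviate together (correlation of deviations -0.0009 over 45037 probe sets), so the numbers were not taken as pairs. With the replicate block 12880 probe sets, 9 of the member probe sets and 31 list genes were called. Without a variance trend 7 of the member probe sets were called.

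In PDKC1, probe sets at least 2-fold apart numbered 1397 at 6 h, 1471 at 10 h and 1215 between 6 and 10 h. They numbered 356, 435 and 280 with a pseudocount of 64, 5824, 5815 and 5287 with no filter on level, and 3411, 3877 and 3329 at 1.5-fold, where 1 member probe set was lower at 6 h. The 4 member probe sets at least 2-fold lower at 10 h than at 0 h were 4 with either pseudocount and either scaling, and 5 with no filter.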
